A study of Mus musculus with 9 samples.

Results

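The 9 genes described here, *Ctgf*, *Cplx3*, *Nr4a2*, *Moxd1*, *Lpar1*, *Tmem163*, *Inpp4b*, *Svil* and *Pls3*, are known markers of the subplate and of layer 6b in newborn mouse cortex. They were picked by gene symbol from a table of 24624 genes, with no measured value in the rule. Earlier results of these data were known when they were chosen. All 9 passed the filter on low values that left 16197 genes for testing. In *Fezf2-/-* cortex the mRNA of *Ctgf* and *Cplx3* fell and that of *Nr4a2* rose, the last less firmly. The other 6 genes were not called, and 0.858% of all tested genes were. In *Fezf2-/-; Fezf2-EnR* cortex, from only 2 mice, *Ctgf* and *Cplx3* were called higher than in *Fezf2-/-*. The share called higher over all tested genes was 0.333%. None of the 9 was called against wild type, where only 0.117% of all tested genes were called.

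Subplate neurons are among the first neurons born in the cortex. They lie between the cortical plate and the white matter, make early contacts with ingrowing thalamic axons, and are in part lost after birth, while those that remain form layer 6b. *Fezf2* encodes a zinc-finger transcription factor of deep-layer projection neurons and of their progenitors, known for its part in giving layer 5 and layer 6 neurons their subtype identity.

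RNA was sequenced from pups at postnatal day 0, born to *Fezf2+/-* mice crossed with *Fezf2+/-;Fezf2-EnR* mice. Each library came from the pair of cortical hemispheres of 1 mouse. Wild type (*Fezf2+/+*) was sampled in 3 mice and *Fezf2-/-* in 4. Only 2 mice were *Fezf2-/-; Fezf2-EnR*. The *Fezf2-/-* pups carried a null allele in which a placental alkaline phosphatase gene is knocked in under the *Fezf2* promoter. The *Fezf2-/-; Fezf2-EnR* pups carried the same null alleles and a BAC transgene that places the engrailed repressor domain, fused to the DNA-binding domain of FEZF2, under the regulatory region of *Fezf2*. It comes from 1 transgenic line. The labels name 3 litters. Litter m1 held wild type replicates bc201 and bc202 and *Fezf2-/-* replicates bc205 and bc206. Litter m2 held wild type replicate bc203 and *Fezf2-/-; Fezf2-EnR* replicate bc209. Litter m3 held *Fezf2-/-* replicates bc204 and bc207 and *Fezf2-/-; Fezf2-EnR* replicate bc208. Comparisons between genotypes therefore mix litters in part, and within-litter values are given beside them. Because whole cortex was sequenced, fewer cells of a type and less RNA per cell cannot be told apart.

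Values are normalized read counts, that is reads divided by a size factor of the library. The reads over genes, as recovered from these values, summed to between 18716575 and 25127623 per library. *Fezf2* itself read 979 to 1232 in wild type, 193 to 242 in *Fezf2-/-*, and 907 and 1001 in *Fezf2-/-; Fezf2-EnR*, where the table gives a single value for *Fezf2*. The 6 markers of glutamatergic cortical neurons were present in every library, with sums of 46256 to 47700 in wild type, 41603 to 53250 in *Fezf2-/-* and 41074 and 51741 in *Fezf2-/-; Fezf2-EnR*. *Xist*, the X-inactivation transcript, read 7895 to 12203 in wild type replicate bc201 and in both *Fezf2-/-; Fezf2-EnR* libraries, and at most 58.9 in the other 6. The Y-linked gene *Ddx3y* read at most 4.22 in those 3 libraries and 1169 to 1600 in the other 6. All 4 *Fezf2-/-* libraries thus differ from both *Fezf2-/-; Fezf2-EnR* libraries in sex-linked expression as well as in the transgene, and the contributions cannot be told apart in that comparison.

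The promoters of the called genes *Cplx3* and *Nr4a2* were picked to be shown because they differ in base composition and in motif content. Any link to the changes of these genes was not tested. Each line holds the 250 bases before an annotated start in RefSeq (GRCm38.p6), 5′ to 3′ on the gene's minus strand, at chr9:57606282-57606531 and chr2:57124004-57124253, with motif matches in capitals.

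*Cplx3*: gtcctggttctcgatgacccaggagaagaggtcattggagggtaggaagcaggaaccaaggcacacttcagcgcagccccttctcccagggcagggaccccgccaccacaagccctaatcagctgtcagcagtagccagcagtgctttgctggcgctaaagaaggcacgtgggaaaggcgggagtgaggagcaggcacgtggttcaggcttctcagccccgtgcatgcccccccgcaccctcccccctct

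*Nr4a2*: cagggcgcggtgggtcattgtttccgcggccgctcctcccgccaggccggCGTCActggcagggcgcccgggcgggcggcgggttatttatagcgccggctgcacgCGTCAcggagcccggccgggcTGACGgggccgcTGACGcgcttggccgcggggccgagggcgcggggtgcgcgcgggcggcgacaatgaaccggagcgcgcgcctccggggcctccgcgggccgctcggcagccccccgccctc

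The window of *Nr4a2* was 80% G and C and held the cAMP response core TGACG 4 times, counting both strands. The window of *Cplx3* was 62.8% G and C and held none of the 4 motifs searched. These were TGACG, found in 17.8% of all 32851 promoter windows of this length, the TEAD core CATTCC (12.6%), the NR4A site AAAGGTCA (1.34%) and the homeodomain core TAATTA (4.84%), each searched on both strands, and none of these letters contains another motif of the 4. Of the 9 genes, 7 had a promoter entry, and *Ctgf* and *Svil* did not. *Tmem163* held TAATTA once, *Moxd1* and *Inpp4b* held no match, *Lpar1* held TAATTA once in 1 of its 3 windows, and the 3 windows of *Pls3* held CATTCC up to 2 times. A match describes letters in this window and not a binding site. The shares count windows with at least 1 match, so they give no measure for 4 matches in 1 window.

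Per kilobase of exon, the 9 genes spanned a wide range of normalized counts in wild type. *Nr4a2* (553 ± 32.3 per kb, SD, n = 3) and *Pls3* (542 ± 23.6 per kb) were highest and their libraries overlapped. *Ctgf* followed at 132 ± 13.3 per kb and *Tmem163* at 70.6 ± 5.38 per kb, each apart from its neighbours. *Cplx3* (33.4 ± 6.05 per kb) and *Lpar1* (25.3 ± 2.30 per kb) overlapped each other. *Svil* (11.6 ± 2.30 per kb), *Moxd1* (9.14 ± 2.25 per kb) and *Inpp4b* (8.21 ± 0.163 per kb) were lowest, each overlapping the next in the order. In *Fezf2-/-* *Nr4a2* was again first, at 936 ± 165 per kb (SD, n = 4), and no longer overlapped *Pls3*. *Cplx3*, at 4.09 ± 1.43 per kb, moved from the fifth place to the last, below every library of *Inpp4b*. *Moxd1* came before *Svil*, the reverse of their order in wild type, but these overlapped in both genotypes. *Ctgf*, at 50.5 ± 9.35 per kb in *Fezf2-/-*, overlapped *Tmem163*, at 49.5 ± 3.73 per kb. In *Fezf2-/-; Fezf2-EnR* the first 4 places were as in wild type, with *Ctgf* at 130 ± 3.94 per kb (SD, n = 2), and *Cplx3*, at 25.4 ± 5.06 per kb, again overlapped *Lpar1*, at 25.9 ± 2.08 per kb.

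**Figure D1:**
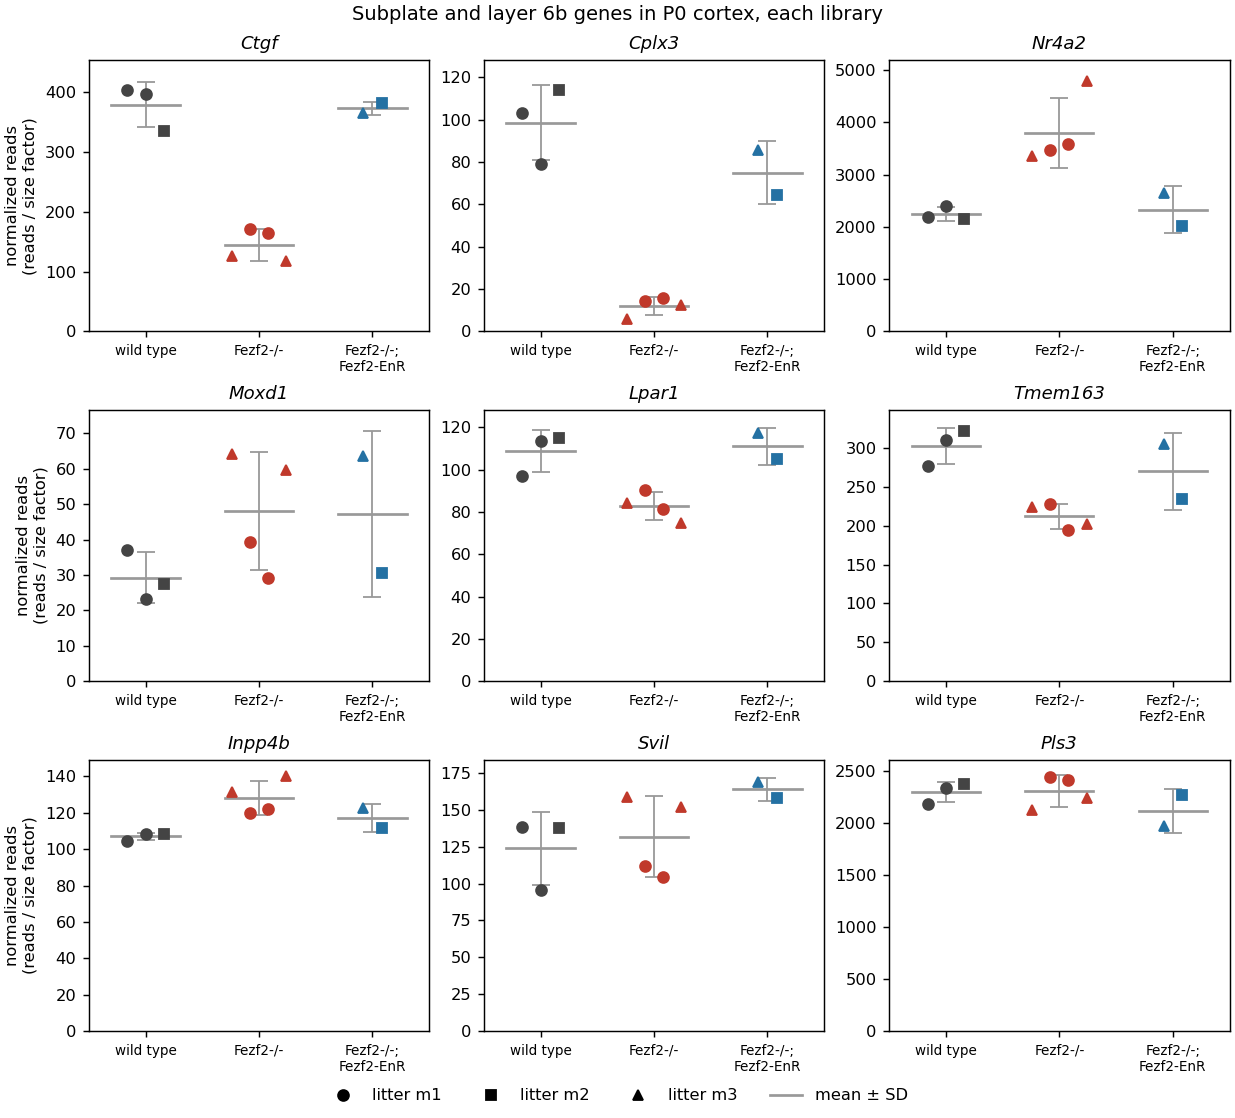
Normalized reads (reads divided by the library's size factor, y axis) of the 9 genes in each library, by genotype (x axis), with the litter as the marker shape and grey bars for the mean ± SD. *Ctgf* and *Cplx3* drop in all 4 *Fezf2-/-* libraries, *Nr4a2* rises in all 4, and in *Moxd1* the 3 libraries of litter m3 lie above the other 6 whatever their genotype.

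The first comparison asked how the genes differ when *Fezf2* is lost. Of the 9 genes, 3 were called in *Fezf2-/-* against wild type (limma, Benjamini-Hochberg adjusted p under 0.05 over 16197 genes), 2 lower and 1 higher. Among all tested genes 0.858% were called, 0.346% lower and 0.512% higher. The 9 genes were chosen with earlier results of these data known, so this contrast is a description. In 6 of the 9 genes the *Fezf2-/-* and wild type libraries did not overlap, against 13.0% of all tested genes. The log2 fold change, on the log2(value + 1) scale, was positive in 5 genes and negative in 4, with a median of 0.00, beside 0.00 over all tested genes.

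*Cplx3* encodes a complexin, a small presynaptic protein that binds the SNARE complex and regulates vesicle fusion, and is a widely used marker of subplate and layer 6b neurons. It read 103, 78.9 and 114 in wild type, and 6.03, 14.2, 15.6 and 12.5 in *Fezf2-/-*, which were 6 to 15 reads against 75 to 122. Every *Fezf2-/-* library lay far below every wild type library. The log2 fold change was -2.99 (SE 0.29, 95% interval -3.63 to -2.34, limma adjusted p = 0.00059), a 7.92-fold drop. With these few reads the size of the drop depends on the pseudocount, from -3.09 with 0.1 to -2.31 with 10, and on litter, at -2.52 within litter m1 alone. *Cplx3* is annotated on the minus strand of chromosome 9, at 57599992 to 57606281 (ENSMUSG00000039714.9, GRCm38).

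*Ctgf* (Ccn2 in newer annotation) encodes a secreted matricellular protein of the CCN family that binds growth factors and integrins. It read 404, 398 and 335 in wild type and 127, 171, 164 and 117 in *Fezf2-/-*. The *Fezf2-/-* libraries all lay below the wild type libraries, and the lower pair came from litter m3. The log2 fold change was -1.40 (SE 0.14, 95% interval -1.71 to -1.08, limma adjusted p = 0.000716), a 2.63-fold drop, and it was -1.25 within litter m1. *Ctgf* lies on the plus strand of chromosome 10, at 24595442 to 24598683 (ENSMUSG00000019997.11, GRCm38). On the opposite strand, 665 bases of its exons overlap RP23-234P12.1, which read only 3.13 to 8.72, against 117 to 404 for *Ctgf*. The 5 meningeal fibroblast markers, read because connective tissue also expresses *Ctgf*, summed to 180 to 373 in wild type, 230 to 441 in *Fezf2-/-* and 203 and 423 in *Fezf2-/-; Fezf2-EnR*, with overlap between all genotypes. One of the 5, *Lum*, was called lower in *Fezf2-/-* (log2 fold change -2.40, limma adjusted p = 0.0176), at 1.04 to 4.36 against 17.9 to 22.8. *Lum* was also called higher in *Fezf2-/-; Fezf2-EnR*, at 24.9 and 13.1, than in *Fezf2-/-* (2.30, limma adjusted p = 0.0426). It moved in the same directions as *Ctgf*. The other 4 markers were not called in any comparison, and did not share its fall. Their log2 fold changes were 0.01 to 0.39 in *Fezf2-/-* against wild type, and -0.27 to 0.17 in *Fezf2-/-; Fezf2-EnR* against *Fezf2-/-*. The part of such cells in the values of *Ctgf* was not tested.

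*Nr4a2* (Nurr1) encodes an orphan nuclear receptor and is expressed in subplate and layer 6b neurons and also in the claustrum. It moved the other way. It read 2179, 2393 and 2156 in wild type and 3357, 3462, 3575 and 4796 in *Fezf2-/-*. All 4 *Fezf2-/-* libraries lay above the wild type libraries, with replicate bc207 well above the other 3. The log2 fold change was 0.75 (SE 0.13, 95% interval 0.46 to 1.03, limma adjusted p = 0.0248), a 1.68-fold rise. This call was less firm than the other 2. With litter as a block it was lost (0.60, limma adjusted p = 0.0599), and it was also lost without replicates bc201, bc202, bc203 or bc206 in turn (limma adjusted p 0.119, 0.0795, 0.0911 and 0.0541), whereas within litter m1 alone it was called (0.62, limma adjusted p = 0.00196).

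Of the 4 claustrum markers other than *Nr4a2*, 1 was called higher in *Fezf2-/-*. This was *Gnb4*, a G protein subunit (0.53 on the log2 scale, limma adjusted p = 0.00193), and the summed level of the 4 was 4883 to 5350 in wild type, 6664 to 7322 in *Fezf2-/-* and 3730 and 4280 in *Fezf2-/-; Fezf2-EnR*. *Lxn*, *Oprk1* and *Ntng2* also had positive log2 fold changes (0.38, 0.81 and 0.35) but were not called. In *Fezf2-/-; Fezf2-EnR* the sum lay below every wild type library, whereas *Nr4a2* was at 0.05 against wild type on the log2 scale. The part of claustrum cells in the rise of *Nr4a2* was not tested. *Nr4a2* lies on the minus strand of chromosome 2, at 57106830 to 57124003 (ENSMUSG00000026826.13, GRCm38).

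*Lpar1* and *Tmem163* read lower in every *Fezf2-/-* library than in any wild type library but were not called. *Lpar1* encodes a receptor for lysophosphatidic acid, a signalling lipid, and lies on the minus strand of chromosome 4, at 58435255 to 58553898 (GRCm38). It read 97.2, 114 and 115 in wild type and 84.4, 90.4, 81.3 and 74.8 in *Fezf2-/-*, a log2 fold change of -0.39 (SE 0.12, limma adjusted p = 0.271). *Tmem163* encodes a zinc-transporting membrane protein of synaptic vesicles and endosomes, and lies on the minus strand of chromosome 1, at 127486546 to 127679548 (GRCm38). It read 277, 310 and 321 in wild type and 224, 228, 195 and 203 in *Fezf2-/-*, a log2 fold change of -0.51 (SE 0.11, limma adjusted p = 0.0861). DESeq2 on the recovered reads did call it (adjusted p = 0.0128), and so did limma on the libraries of these genotypes alone (adjusted p = 0.0383). DESeq2 called 1.95% of 16189 genes and 4 of the 9, the 3 named above and *Tmem163*. On the opposite strand, 152 bases of *Tmem163* exons overlap *Mgat5*. That gene read 2028 to 2325 in wild type, 2464 to 2888 in *Fezf2-/-*, and 2460 and 2862 in *Fezf2-/-; Fezf2-EnR*. The sources used here do not say whether reads were counted by strand, so the value of *Tmem163* is uncertain.

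*Inpp4b*, *Moxd1*, *Svil* and *Pls3* were not called either. *Inpp4b* encodes a phosphatase of phosphoinositides that acts in PI3K signalling. It read 105, 108 and 109 in wild type and 132, 120, 122 and 140 in *Fezf2-/-*, so the groups did not overlap, but the log2 fold change was small (0.26, SE 0.11, limma adjusted p = 0.423). *Svil* encodes supervillin, which links actin and myosin to the membrane. Its libraries overlapped, at 95.7 to 139 in wild type and 104 to 159 in *Fezf2-/-* (log2 fold change 0.08, 95% interval -0.33 to 0.49). *Pls3* encodes plastin 3, an actin-bundling protein, and is X-linked. It read 2186 to 2375 in wild type and 2125 to 2447 in *Fezf2-/-*, and its interval was the narrowest of the 9 (log2 fold change 0.00, 95% interval -0.16 to 0.16). In each of the 6 genes without overlap the exact two-sided permutation test over 35 splits gave p = 0.029, the smallest it can give.

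**Figure D2:**
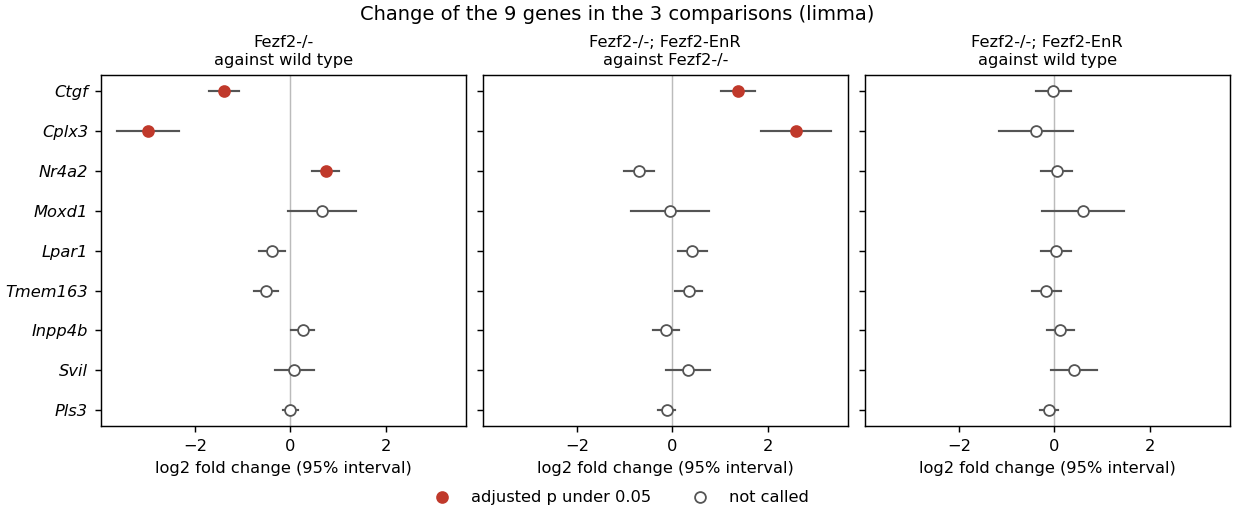
Log2 fold change on the log2(value + 1) scale (x axis) with its 95% interval from limma for each of the 9 genes (y axis) in the 3 comparisons, filled where the adjusted p was under 0.05. *Ctgf* and *Cplx3* lie left of 0 in *Fezf2-/-* against wild type and right of 0 in *Fezf2-/-; Fezf2-EnR* against *Fezf2-/-*, and no gene is filled in the third panel.

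The values in *Fezf2-/-; Fezf2-EnR* were set against *Fezf2-/-* to ask what the repressor form of FEZF2 changes in the absence of the normal gene. Both comparisons use the same *Fezf2-/-* libraries, so opposite signs in them are in part built in. Of the 9 genes, 2 were called, both higher (limma). Among all tested genes 0.766% were called, 0.333% higher and 0.432% lower. The 2 groups did not overlap in 5 of the 9 genes, against 24.6% of all tested genes, and the median log2 fold change of the 9 was 0.33, beside 0.00 over all tested genes.

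*Ctgf* read 365 and 381 in *Fezf2-/-; Fezf2-EnR*, both above every *Fezf2-/-* library and inside the range of wild type. Its log2 fold change against *Fezf2-/-* was 1.38 (SE 0.16, 95% interval 1.02 to 1.74, limma adjusted p = 0.0033), and within litter m3, 1 library against 2, it was 1.58. *Cplx3* read 85.6 and 64.5, so one library was inside the wild type range and the other below it. Its log2 fold change was 2.60 (SE 0.33, 95% interval 1.87 to 3.33, limma adjusted p = 0.00564), and 3.15 within litter m3. Both calls were lost without replicate bc209, which leaves 1 mouse assumed to vary like the others. The values then were 1.35 for *Ctgf* and 2.80 for *Cplx3*, with limma adjusted p of 0.0655 and 0.0632. The exact permutation test over 15 splits cannot go below p = 0.067 here, which it gave for both genes.

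*Nr4a2* read 2653 and 2016 in *Fezf2-/-; Fezf2-EnR*, below all 4 *Fezf2-/-* libraries and on either side of the wild type range. The log2 fold change of -0.70 (SE 0.15, limma adjusted p = 0.0649) was not called. It was called without replicate bc208 (-0.90, limma adjusted p = 0.0178) and by DESeq2 (adjusted p = 0.000393), which called 3.56% of the 12737 genes to which it gave an adjusted p. *Cplx3* and *Moxd1* were not among these, and of the other 7 genes it called *Nr4a2* and *Ctgf*. Of the claustrum markers, *Gnb4* (-0.87, limma adjusted p = 0.000165) and *Ntng2* (-0.85, limma adjusted p = 0.00734), which encodes netrin-G2, were called lower beside *Nr4a2*, and their part in its value was not tested. *Lpar1* read 117 and 105, above every *Fezf2-/-* library (log2 fold change 0.42, SE 0.14, limma adjusted p = 0.191). *Tmem163* read 306 and 235 and was also above every *Fezf2-/-* library (0.34, SE 0.13, limma adjusted p = 0.232), but its libraries lay further apart than those of any other genotype. *Inpp4b* (122 and 111), *Moxd1* (63.7 and 30.6), *Svil* (169 and 158) and *Pls3* (1969 and 2269) overlapped the *Fezf2-/-* libraries, with log2 fold changes between -0.13 and 0.33.

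Sex-linked expression separates *Fezf2-/-* from *Fezf2-/-; Fezf2-EnR*. Wild type replicate bc201 is the only other library with high *Xist*. It read 404 for *Ctgf* and 103 for *Cplx3*, beside 398 and 335 and beside 78.9 and 114 in the other wild type libraries. Without bc201, all *Fezf2-/-* and wild type libraries have low *Xist*, and the log2 fold change of *Fezf2-/-* against wild type was -1.35 for *Ctgf* (limma adjusted p = 0.00848) and -2.95 for *Cplx3* (limma adjusted p = 0.00728). *Nr4a2*, at 0.73, was then no longer called (limma adjusted p = 0.119), and none of the other 6 was called. A single wild type library cannot measure a sex difference, and the part of sex-linked expression in these values was not tested.

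Against wild type, none of the 9 genes was called in *Fezf2-/-; Fezf2-EnR* with limma, where 0.117% of all tested genes were. On recovered reads edgeR called 0 of the 9. DESeq2 called 0 of the 6 to which it gave an adjusted p, against 5.58% of 11481 genes, and gave none to *Cplx3*, *Moxd1* or *Lpar1*. Among the 9, 0 had an unadjusted limma p under 0.05, against 19.3% of all genes. With 2 libraries against 3, the intervals are wide. For *Ctgf* the log2 fold change was -0.02 (95% interval -0.39 to 0.36), for *Cplx3* -0.39 (-1.16 to 0.39) and for *Nr4a2* 0.05 (-0.29 to 0.38). Within litter m2, 1 library of each genotype, the differences were 0.19 for *Ctgf*, -0.81 for *Cplx3* and -0.10 for *Nr4a2*. *Svil* (158 and 169 against 95.7 to 139) and *Inpp4b* (111 and 122 against 105 to 109) were the 2 genes without overlap, which 34.6% of all tested genes also showed, with log2 fold changes of 0.42 (95% interval -0.07 to 0.90) and 0.12 (-0.16 to 0.41).

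*Moxd1* encodes a copper-dependent monooxygenase related to dopamine beta-hydroxylase, and its values differed between litters. It read 37.2, 23.2 and 27.4 in wild type, 64.3, 39.2, 29.2 and 59.8 in *Fezf2-/-*, and 63.7 and 30.6 in *Fezf2-/-; Fezf2-EnR*. The 3 libraries of litter m3 read 59.8 to 64.3 and all the others 23.2 to 39.2. Litter m3 held no wild type mouse, so litter and genotype are confounded in part, and 4.64% of tested genes also had all m3 libraries above the others. The log2 fold change of *Fezf2-/-* against wild type was 0.66 (SE 0.33, limma adjusted p = 0.516) over all litters, 0.18 with litter as a block and 0.20 within litter m1. Between the *Fezf2-/-* libraries of m3 and m1 the log2 difference was 0.85, which 1.28% of tested genes exceeded. The only other of the 9 genes with all m3 libraries above the rest was *Inpp4b*, by a margin of 122.5 against 122.0. *Svil* read 152 and 159 in the *Fezf2-/-* libraries of m3 and 104 and 112 in those of m1, while *Cplx3* and *Ctgf* were lower in m3 than in m1 within *Fezf2-/-*, by 0.71 and 0.46 on the log2 scale. Each of these within-genotype differences rests on 2 libraries against 2.

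**Figure D3:**
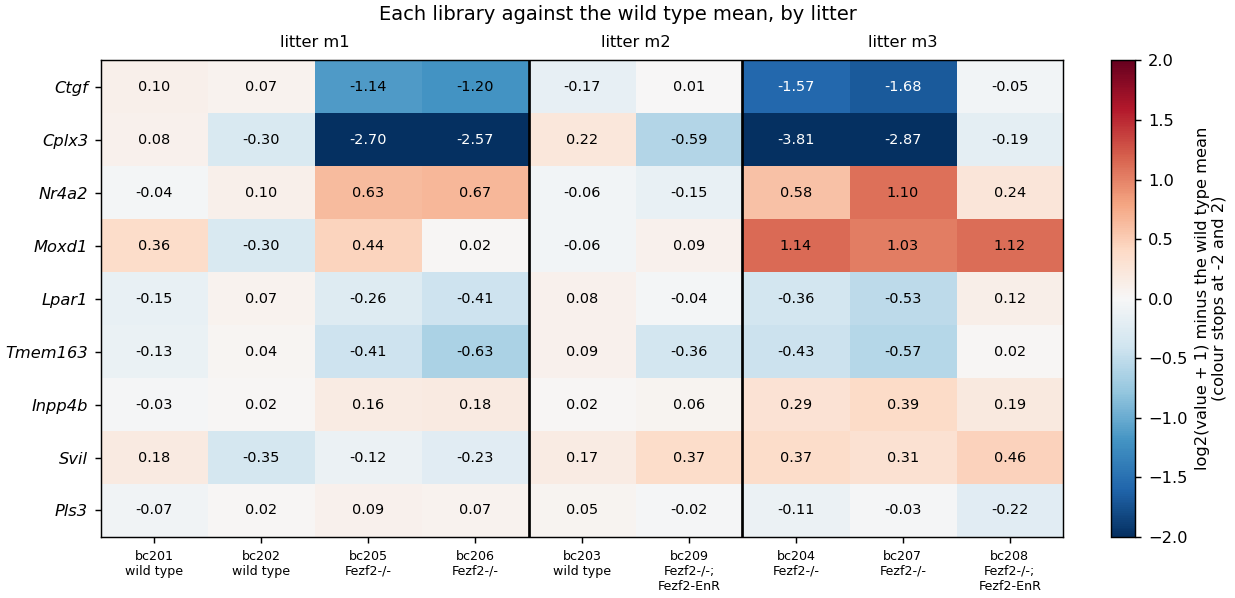
Difference in log2(value + 1) between each library (columns, grouped by litter) and the wild type mean for the 9 genes (rows), printed in each cell. *Cplx3* lies between -3.81 and -2.57 and *Ctgf* between -1.68 and -1.14 in all 4 *Fezf2-/-* libraries of litters m1 and m3, while *Moxd1* is at 1.03 to 1.14 in the 3 libraries of litter m3 only.

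Relatives of the called genes were read to see whether their families moved with them. Among the complexins, *Cplx1* and *Cplx2*, the main complexins of forebrain synapses, were far higher per kilobase in wild type (1640 and 3410 per kb, against 33.4 for *Cplx3*) and were not called, with log2 fold changes of -0.15 and -0.24 in *Fezf2-/-* against wild type. *Cplx4* had no row in the table. Of the CCN family, 4 relatives of *Ctgf* were tested and 0 were called (limma, with log2 fold changes from -0.68 to 0.38). *Cyr61*, which encodes the related protein CCN1, read 74.8 to 95.5 in wild type and 77.3 to 102 in *Fezf2-/-*.

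In the NR4A family *Nr4a3* (Nor1) also rose. It read 1199, 880 and 1106 in wild type and 1740, 2072, 1983 and 2272 in *Fezf2-/-*, without overlap. Its log2 fold change was 0.93 (SE 0.13, limma adjusted p = 0.00577). *Nr4a1* (Nur77) read 112 to 131 in wild type and 113 to 167 in *Fezf2-/-* and was not called (0.21, SE 0.19, limma adjusted p = 0.738). In *Fezf2-/-; Fezf2-EnR*, *Nr4a3* read 1432 and 1851, above every wild type library, by 0.63 on the log2 scale (limma adjusted p = 0.115), and -0.30 against *Fezf2-/-* (limma adjusted p = 0.314), and neither difference was called.

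Around *Lpar1*, 12 other genes were tested. They encode lysophosphatidic acid receptors, the enzyme that makes the ligand, and lipid phosphatases with related proteins. Of these, 2 were called, both higher in *Fezf2-/-*, beside 0.512% called higher among all tested genes. *Plppr4* (PRG-1) and *Plppr5* encode lipid phosphatase-related membrane proteins of neurons. *Plppr4* read 1919 to 2104 in wild type and 2760 to 3304 in *Fezf2-/-* (log2 fold change 0.54, limma adjusted p = 0.028), and *Plppr5* read 1857 to 1985 and 2348 to 2748 (0.37, limma adjusted p = 0.0258). The other receptors, *Lpar2*, *Lpar3*, *Lpar4* and *Lpar6*, and *Enpp2* (autotaxin, which makes the ligand) were not called, with log2 fold changes from 0.11 to 0.43. None of the 8 zinc transporters set beside *Tmem163*, the 6 phosphatases beside *Inpp4b*, the 3 tested relatives of *Svil*, the 2 plastins beside *Pls3*, or *Pam* beside *Moxd1* was called in *Fezf2-/-* against wild type.

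**Figure D4:**
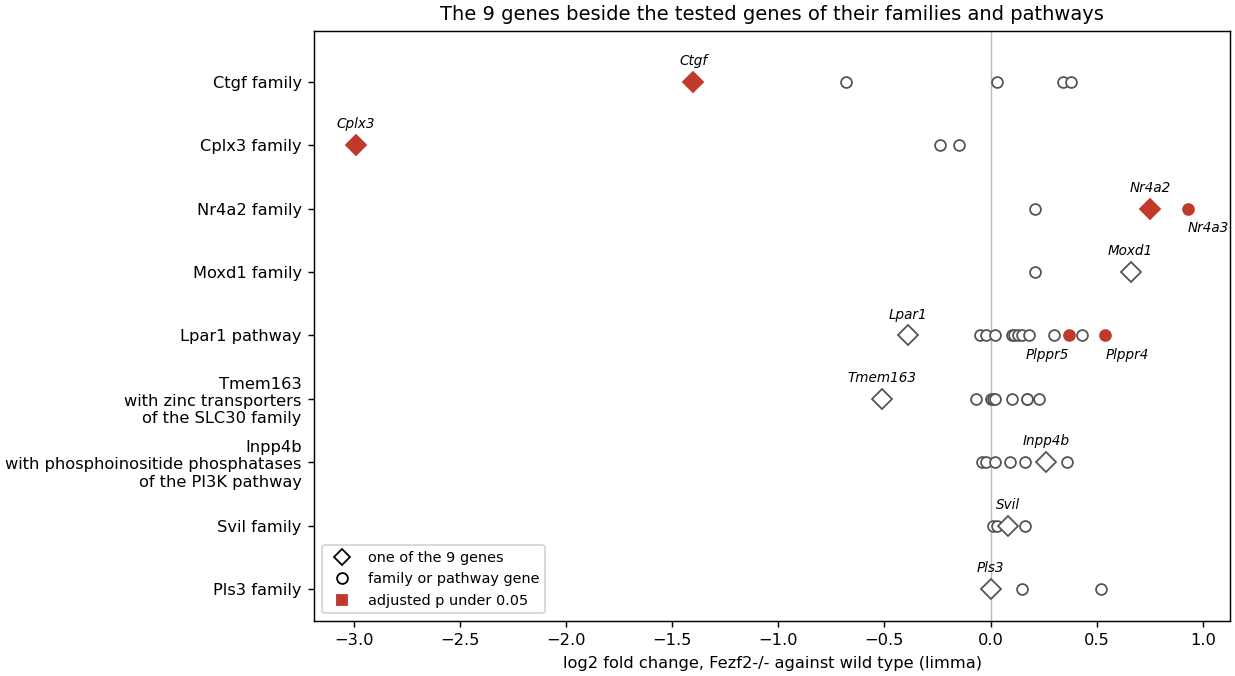
Log2 fold change of *Fezf2-/-* against wild type (x axis, limma) for each of the 9 genes (diamonds) and the tested genes of its family or pathway (circles), red where the adjusted p was under 0.05. *Cplx3* at -2.99 and *Ctgf* at -1.40 stand apart from their relatives, which lie between -0.68 and 0.38, while *Nr4a2* (0.75) lies beside *Nr4a3* (0.93).

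Of 15 other genes known from the subplate and layer 6b, 3 were called, all lower in *Fezf2-/-*. They were *Nxph3* and *Nxph4*, neurexophilins that bind alpha-neurexins at synapses, and *Ngfr*, the p75 neurotrophin receptor. *Nxph4* read 385, 483 and 410 in wild type, 126, 163, 169 and 167 in *Fezf2-/-*, and 327 and 367 in *Fezf2-/-; Fezf2-EnR* (log2 fold change -1.45 without *Fezf2*, limma adjusted p = 0.000265, and 1.15 for the transgene on that background, limma adjusted p = 0.0052). *Nxph3* and *Ngfr* had log2 fold changes of -2.70 and -2.60, and of 2.51 and 2.58 with the transgene, also called. The other 12, among them *Serpini1*, *Drd1*, *Gabra5* and *St18*, were not called in any of the 3 comparisons, with log2 fold changes from -0.39 to 0.38 in *Fezf2-/-* against wild type. The median over the 15 was -0.08, beside 0.00 over all tested genes. Among all tested genes 0.346% were called lower in *Fezf2-/-* against wild type, and 0.333% higher in *Fezf2-/-; Fezf2-EnR* against *Fezf2-/-*. The gene lists were drawn up with earlier results of these data known, so counts within them are descriptions and not independent support. A list of 9 transcription regulators of deep-layer neurons includes *Fezf2* itself, the targeted gene, whose fall was set by the design. Besides *Fezf2*, *Tle4* and *Zfpm2* were called lower, and *Tbr1*, *Sox5*, *Bcl11b*, *Nfia*, *Nfib* and *Foxp2* were not called. *Foxp2*, a transcription factor of layer 6 neurons, read 820, 742 and 742 in wild type, 636, 276, 224 and 161 in *Fezf2-/-*, and 826 and 911 in *Fezf2-/-; Fezf2-EnR*. Its *Fezf2-/-* libraries lay below all the others, with replicate bc204 well above the rest of its group. That replicate also had the highest sum of striatal markers of all libraries (2007). Among the *Fezf2-/-* libraries it had the highest *Drd1* (432) and *Bcl11b* (5287) too. The part of striatal tissue in *Foxp2*, *Drd1* and *Bcl11b* was not tested. The differences of *Foxp2*, -1.44 against wild type (limma adjusted p = 0.123) and 1.62 with the transgene (limma adjusted p = 0.106) on the log2 scale, missed the threshold. The other 5 lay between -0.15 and -0.02 in *Fezf2-/-* against wild type, with *Tbr1* and *Sox5*, which subplate neurons express, at -0.02 and -0.07.

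**Figure D5:**
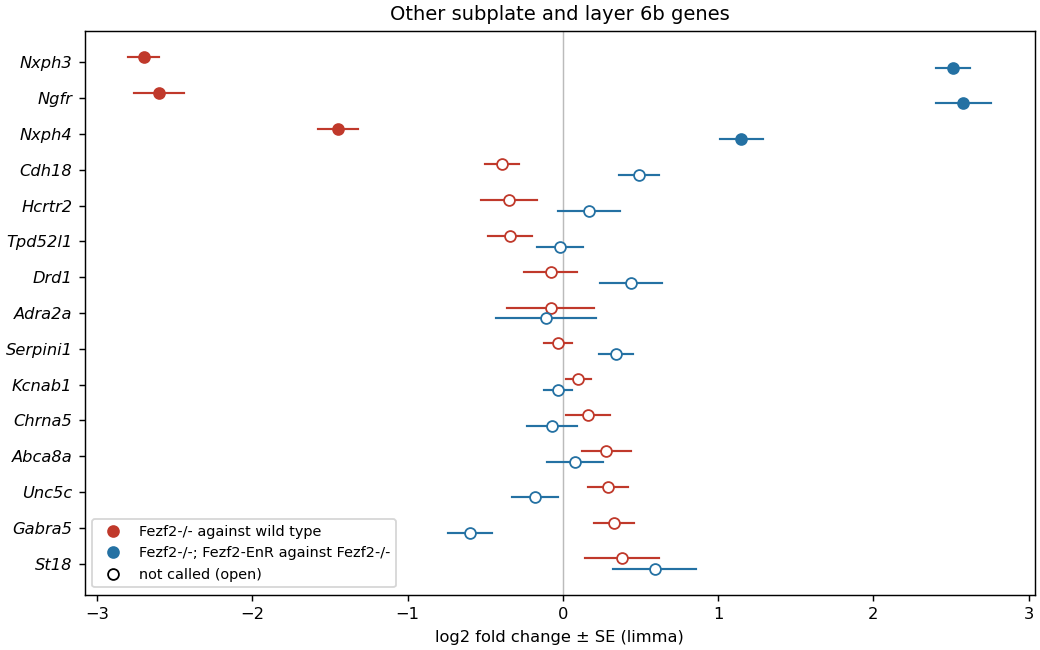
Log2 fold change ± SE (x axis, limma) of 15 other subplate and layer 6b genes (y axis) in *Fezf2-/-* against wild type (red) and in *Fezf2-/-; Fezf2-EnR* against *Fezf2-/-* (blue), filled where called. *Nxph3*, *Ngfr* and *Nxph4* are filled in both colours, and the other 12 are open in both.

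The genes most like each of the 9 across libraries were taken from 12963 genes with a mean of at least 50, as a description over 9 libraries that share genotype and litter. For *Ctgf* they were *Zfpm2*, a corticothalamic transcription cofactor, and *Slc35f2* (Pearson r = 0.973 for both, on log2(value + 1)). For *Cplx3* they were *Arhgap25* (r = 0.971) and *Nxph4* (r = 0.969). *Arhgap25* read 79.4 to 86.4 in wild type, 33.1 to 36.6 in *Fezf2-/-*, and 82.6 and 60.1 in *Fezf2-/-; Fezf2-EnR*. For *Nr4a2* they were RP24-300B21.2 (r = 0.976) and *Dner* (r = 0.972), a Notch-related membrane protein. For *Moxd1* they were *Swap70* (r = 0.962) and *Dock10* (r = 0.957), which also read highest in litter m3 among the *Fezf2-/-* libraries, at 194 to 228 against 166 to 177 for *Swap70*. For *Inpp4b* they were *Plcxd3* and *Kcnc2* (r = 0.970 for both). For *Tmem163* they were *Myo18b* (r = 0.945) and *Ap1m1* (r = 0.938), for *Lpar1* *Xrcc1* (r = 0.937) and *Ccdc59* (r = 0.927), for *Svil* *Prdm4* (r = 0.967) and *Mbd2* (r = 0.959), and for *Pls3* *Pmepa1* (r = 0.936) and RP23-36C9.2 (r = 0.932).

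Markers of other cell types in a cortical dissection were read for the same libraries. None of the endothelial, pericyte, oligodendrocyte lineage, microglial, Cajal-Retzius, striatal or GABAergic interneuron markers was called in *Fezf2-/-* against wild type with limma. Their summed levels overlapped between *Fezf2-/-* and wild type except for the 9 interneuron markers (8793 to 9216 in wild type, 11580 to 12354 in *Fezf2-/-*, 8891 and 10039 in *Fezf2-/-; Fezf2-EnR*) and the 8 oligodendrocyte lineage markers (6600 to 6760, 7341 to 7523, and 6736 and 6961). The 7 striatal markers, which could report the depth of the dissection, summed to 1051 to 1310 in wild type. They summed to 493, 610, 689 and 2007 in *Fezf2-/-*, the highest in replicate bc204, and to 803 and 1620 in *Fezf2-/-; Fezf2-EnR*, the higher in replicate bc208. The thalamic markers summed to 1591 to 1690 in wild type and 1698 to 2094 in *Fezf2-/-*. Of these only *Slc17a6* was called higher (0.59, limma adjusted p = 0.0367). *Prkcd* (-0.22, limma adjusted p = 0.49) and *Tcf7l2* (0.21, limma adjusted p = 0.738) were not called, and *Gbx2*, at 0 to 9.04, was too low to be tested. *Emx1*, of the cortical list, was called lower (-0.44, limma adjusted p = 0.0296). The part of these cell types in the values of the 9 genes and of the other genes read here was not tested.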

How the data were processed

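Poly(A) RNA from cortices of pups at postnatal day 0 was sequenced by the authors with paired ends, and each library is 1 mouse. The deposited table holds normalized signal, that is read counts per gene divided by a DESeq size factor and printed to 2 decimals. The submitters' processing notes name mm10, Bowtie, STAR and DESeq. The counting tool, the annotation and the use of strand are not given in the sources used here. The study's methods give 4 wild type mice and the labels 3, and the labels were followed.

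Since these are not counts, the main test was limma 3.58.1 (two-sided, eBayes with trend, R 4.3.3) on log2(value + 1). It covered 16197 genes whose mean over the 9 libraries reached 10, with 1 coefficient per genotype, so that all genotypes share 1 estimate of the spread. Calls used Benjamini-Hochberg adjusted p under 0.05 over every gene tested. Reads were recovered as whole multiples of the value of 1 read, within 0.006, for 100% of values in every library (steps of 1.0043 in replicate bc204 and 0.9956 in bc208 lie so close to 1 that they are less certain), and edgeR 4.0.16 and DESeq2 1.42.0 were run on them as alternatives. At least 6 reads stood behind every value of the 9 genes. All 3 tools were first run on simulated data with known changes. The simulation held no litter or sex differences, and its outcome is not given here. GENCODE M21 (GRCm38) gave positions, exon lengths and overlaps.

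The 9 genes, the gene lists, the marker lists and the motifs were chosen with earlier results of these data known. Named genes are the 9, *Fezf2*, listed genes called in any comparison, measured relatives set beside a member, and the 2 genes most like each member. *Lum* and other single markers were named because they were called, and the family, pathway and other-subplate genes named without a call were chosen after their values were seen.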

Additional observations from a re-analysis of the deposited data

Results flagged for a closer look

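Among the 9 genes in the 4 *Fezf2-/-* libraries, the highest value of *Nr4a2*, 4796 in replicate bc207, stood apart from the other 3, which lay between 3357 and 3575. Its gap to the nearest of them was 0.849 of the whole range, above Dixon's 95% critical value for 4 samples. About 1 in 20 groups is marked this way by chance, and 9 were examined. Without this library the log2 fold change of *Nr4a2* in *Fezf2-/-* against wild type was 0.63 (limma adjusted p = 0.0175), and it was still called.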

How the results depend on the processing

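The falls of *Ctgf* and *Cplx3* in *Fezf2-/-* were called under all 20 alternatives, with log2 fold changes of -1.48 to -1.25 and -3.14 to -2.31. In *Fezf2-/-* against wild type the number of the 9 genes called ranged from 2 to 4 when 1 library was left out. In *Fezf2-/-; Fezf2-EnR* against *Fezf2-/-* it ranged from 0 (without replicate bc209) to 3 (without bc208). Over all genes, the calls in *Fezf2-/-* against wild type were 139, and 221 with these groups alone, 233 in litter m1 alone, 315 with DESeq2 and 66 to 217 with 1 library left out. In *Fezf2-/-; Fezf2-EnR* against *Fezf2-/-* they were 124, and 67 with these groups alone, 454 with DESeq2 and 21 to 1088 with 1 library left out. Against wild type they were 19, and 10 with a mean of at least 50, 12 with these groups alone, 32 with litter as a block, 641 with DESeq2 and 8 to 491 with 1 library left out. The causes of these shifts were not tested.

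Changes of sign were seen only in genes whose log2 fold change as reported lay between -0.17 and 0.08. In *Fezf2-/-* against wild type, *Svil* was -0.05 with litter as a block, -0.09 in litter m1 alone and -0.09 to 0.19 with 1 library left out, and *Pls3* was -0.03 to 0.04. In *Fezf2-/-; Fezf2-EnR* against *Fezf2-/-*, *Moxd1* was 0.01 with litter as a block and -0.57 to 0.47 with 1 library left out. Against wild type, *Ctgf* was 0.25 with litter as a block and -0.10 to 0.03 with 1 library left out, *Nr4a2* was -0.04 and -0.15 to 0.24, *Lpar1* was -0.04 to 0.12, and *Tmem163* was -0.36 to 0.02. No paired analysis was possible because the replicate names are not shared between genotypes, and litter was used as the block instead.

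Depth limits *Cplx3* and *Moxd1* most. Only 2 *Fezf2-/-; Fezf2-EnR* mice were sequenced, and sex-linked expression and litter differ between the genotypes.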

Other observations

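*Moxd1* and *Ctgf* are neighbours on chromosome 10, 293 kb apart in GENCODE M21, and no other tested gene lies between them. Their values did not move together. *Ctgf* fell in *Fezf2-/-* (log2 fold change -1.40, limma adjusted p = 0.000716), whereas *Moxd1* had a log2 fold change of 0.66 that was not called (limma adjusted p = 0.516).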
